A study of Mus musculus with 12 samples.

Results

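Ribosomal protein genes encode the proteins of the large (Rpl) and small (Rps) subunit of the cytoplasmic ribosome, and most of them are transcribed at high levels in every dividing cell. A few have paralogs, often autosomal copies of an X-linked gene, that are best known from male germ cells, where the X chromosome is silenced during meiosis and the copy supplies the protein, or from muscle. The genes described here are all genes on the array whose name is that of a ribosomal protein, without the kinases named Rps6k. The name rule gave 100 genes, of 22322 genes tested between groups, measured by 202 probes. They comprise 76 common ribosomal protein genes (46 of the large and 30 of the small subunit), 8 paralogs with the suffix l (7 by the array's name and 1, Rps4y2, by its RefSeq name Rps4l), 15 pseudogenes and 1 binding protein, Rps19bp1. All 100 were well above background on the 3 arrays of at least 1 group, and 57 had more than 1 probe, of which the brightest stood for the gene.

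All cultures came from 1 line of C57BL/6 actin-eGFP embryonic stem cells (mESC), which had been kept on mouse fibroblast feeders, which were depleted before embryoid bodies were formed. The groups were step 4 enriched cells, step 4 control cells, step 5 enriched cells and step 5 control cells, with 3 biological replicates each, as the series' design text puts it. Step 4 cells were neural precursors after 5 days with bFGF at 10 ng/ml, and step 5 cells had differentiated for 7 days without bFGF and with ascorbic acid at 200 µM. Enriched cells had been pulled out with beads against PSA-NCAM, a neural cell adhesion molecule that carries polysialic acid and marks immature neurons, and control cells were not selected. The labels do not say whether step 5 enriched cells were selected before or after those 7 days. Each array set Cy5-labelled sample RNA against Cy3-labelled RNA of the mESC, so a level is a log2 ratio to mESC and a difference is between such ratios. With 0 dye swaps, an effect of the dyes on a gene cannot be told apart from its level against mESC. Differences between groups compare samples in the same dye. Signals of different probes are not compared, and where ratios of 2 genes are set side by side each is relative to that gene's own mESC signal. In these bulk samples, fewer cells of a type and less RNA per cell cannot be told apart.

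The 3 replicates of a group lay on 3 slides, and same-numbered replicates shared a slide. Across all genes, arrays of a group correlated at 0.897 to 0.963 in step 4 enriched, 0.737 to 0.85 in step 4 control, 0.94 to 0.962 in step 5 enriched and 0.662 to 0.918 in step 5 control cells, and the control arrays of slide 2 stood apart from the others. Of 12 neuronal marker genes 5 were higher in enriched than in control cells at step 4 and 11 at step 5, with 0 lower, and of 13 pluripotency genes 12 were lower at each step. The neuronal list holds Ncam1, St8sia2 and St8sia4, the genes for NCAM and polysialic acid synthesis, so it is not separate from the selection. Of all genes tested 15% were higher and 16.2% lower at step 4, and 20.3% and 20.2% at step 5. The array medians of the neuronal list were 2.50 to 3.80 in step 4 enriched and 0.51 to 2.61 in step 4 control cells, and 3.19 to 3.38 in step 5 enriched and 0.37 to 1.76 in step 5 control cells, so the ranges overlapped at step 4.

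The results turn on Rpl10l and Rpl39l. Rpl10l is an intronless copy of X-linked Rpl10 that replaces it in meiotic male germ cells of the mouse, and Rpl39l is the autosomal counterpart of X-linked Rpl39, a small protein at the exit tunnel for the growing peptide. The starts of both genes and of the genes they are named after are shown to compare the paralogs with their X-linked counterparts. Each line runs 5′ to 3′ from 100 bases before to 50 bases after the RefSeq transcription start on GRCm38.p6. Capitals mark the longest run of at least 8 C or T bases found within 50 bases on either side of the start. Such a run need not begin at the start itself.
Rpl10l, chr12:66284352-66284501, minus strand: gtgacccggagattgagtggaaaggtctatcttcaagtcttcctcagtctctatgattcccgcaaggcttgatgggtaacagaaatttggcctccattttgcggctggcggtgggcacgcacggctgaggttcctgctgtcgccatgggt
Rpl10, chrX:74270716-74270865, plus strand: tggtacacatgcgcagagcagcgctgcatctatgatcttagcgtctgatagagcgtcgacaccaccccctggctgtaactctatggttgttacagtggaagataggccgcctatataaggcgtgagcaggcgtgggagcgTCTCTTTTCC
Rpl39l, chr16:10170128-10170277, plus strand: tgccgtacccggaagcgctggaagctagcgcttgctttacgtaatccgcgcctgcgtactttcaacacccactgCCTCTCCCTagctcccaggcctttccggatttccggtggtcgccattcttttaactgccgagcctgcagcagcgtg
Rpl39, chrX:37085173-37085322, minus strand: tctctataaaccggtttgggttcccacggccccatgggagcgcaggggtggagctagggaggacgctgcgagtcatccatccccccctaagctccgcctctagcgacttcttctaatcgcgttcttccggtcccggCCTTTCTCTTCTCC

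Rpl10l had no such run. The run was 9 bases long in Rpl39l, 10 in Rpl10 and 14 in Rpl39, where the last 2 reach the end of the window. It began at position -26 from the start in Rpl39l, 41 in Rpl10 and 37 in Rpl39. None of these runs began at the start, and the shares below count runs at any such position. RefSeq promoters were matched for 64 members, 56 of the 76 common genes and 7 of the 8 paralogs. A run was present in 5 of those 7 paralogs (71.4%) and in 45 of the 56 common genes (80.4%), against 35.7% of all 27018 promoters. Within 300 bases, 250 before to 50 after the start, 5 motifs were searched on both strands, each counted on its own where letters overlap. The YY1 core ATGGCG stood in 4 of 7 paralogs (57.1%) and 15 of 56 common genes (26.8%), against 9.2% of all promoters. The ETS motif CCGGAAG stood in 2 paralogs (28.6%) and 23 common genes (41.1%), against 9.1%. For the SP1 box GGGCGG these shares were 71.4% and 58.9% against 35.9%, and for the E2F core TCCCGC 42.9% and 30.4% against 20.0%. The E-box CACGTG stood in 0 paralogs and 5 common genes (8.9%), against 7.2%. Of these motifs Rpl10l held the E2F core, the SP1 box and the YY1 core, and Rpl39l held the ETS motif and the YY1 core. The number of CpG pairs in the window had a median of 17 in paralogs (2 to 42) and 21.5 in common genes (8 to 35), against 7 over all promoters. These matches describe letters only.

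Selection for PSA-NCAM was compared with no selection at each step to ask how cells that carry this antigen differ from the mixed culture. Among the 8 paralogs 5 were lower in enriched than in control cells at step 4 (Rpl10l, Rpl39l, Rps4y2, Rpl3l and Rpl7l1) and 6 at step 5, where Rps27l joined them. None was higher, and Rpl10l and Rpl39l had the largest differences among the members. The count of 5 stands beside 16.2% of all genes called lower at step 4, and that of 6 beside 20.2% at step 5. Calls are from limma's moderated test at an adjusted p under 0.05, two-sided, adjusted by Benjamini and Hochberg over all genes. The median difference over the 8 paralogs was -1.04 at step 4 and -1.06 at step 5, against 0.01 and -0.01 over all genes tested. Of the 76 common genes 74 at step 4 and 73 at step 5 lay within 0.5 of 0.

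**Figure D1:**
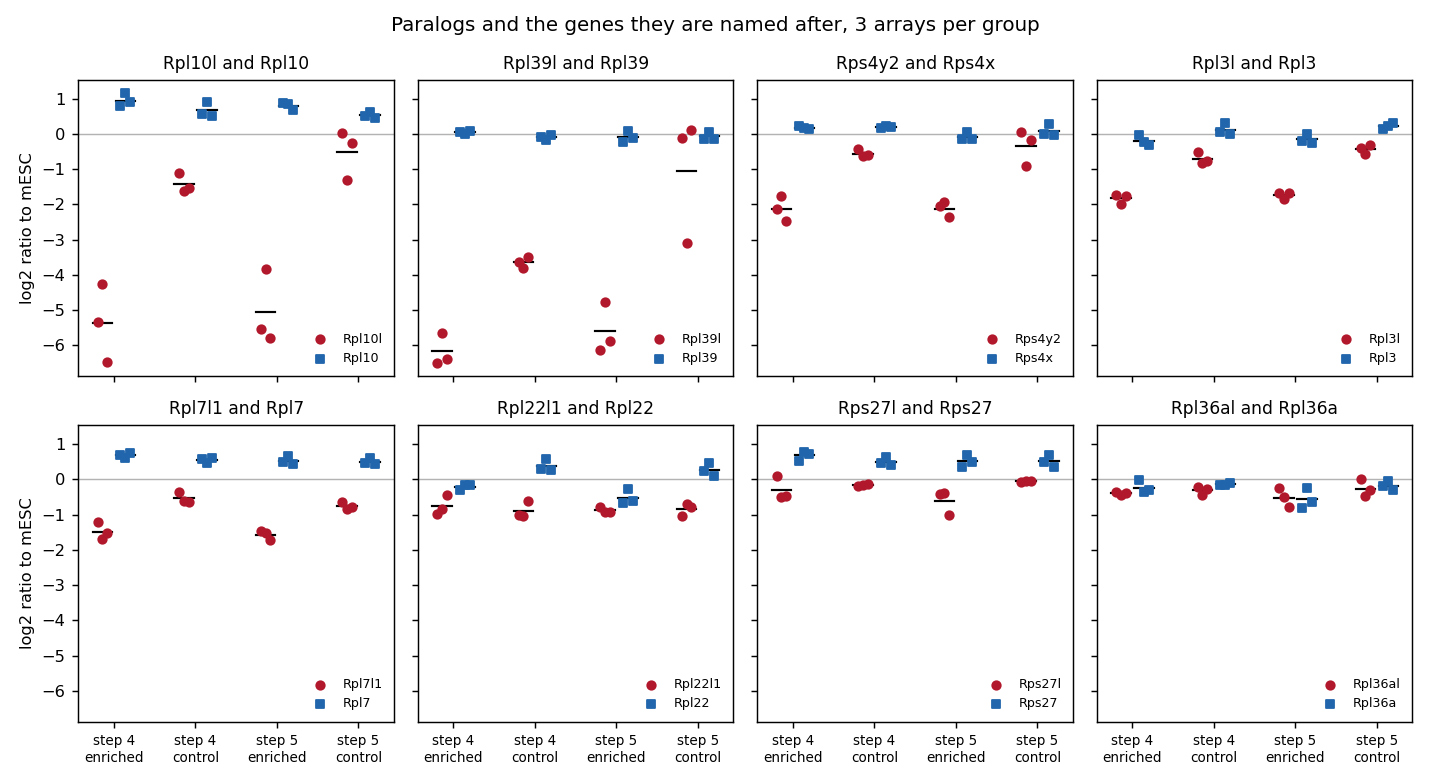
Log2 ratio to mESC of the 8 paralogs (red circles) and of the genes they are named after (blue squares) on each of the 3 arrays of a group, with the group mean as a bar. The points of Rpl10l and Rpl39l in enriched cells lie between -3.83 and -6.49, while those of Rpl10 and Rpl39 in all 4 groups lie between -0.23 and 1.15.

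Rpl10l (probe at chr12:67384403-67384462, mm9) had log2 ratios to mESC of -5.33, -4.27 and -6.47 in step 4 enriched cells, against -1.11, -1.63 and -1.55 in step 4 control cells. The enriched arrays were all lower than the control arrays, with no overlap. The difference was -3.93 (SE 0.62, adjusted p = 0.001539), a 15.2-fold lower ratio. In step 5 enriched cells the ratios were -5.53, -3.83 and -5.79, against 0.04, -1.31 and -0.27 in step 5 control cells. The groups did not overlap here either, and both step 5 control arrays other than that of slide 2 lay near the mESC level. The difference was -4.54 (SE 0.62, adjusted p = 0.0004212), or 23.2-fold. By slide it was -5.57, -2.52 and -5.53, smallest on slide 2, as at step 4 with -4.22, -2.65 and -4.92. The enriched array of slide 2 was the highest of its group at both steps (-4.27 and -3.83). Without both control arrays of slide 2, and with its enriched arrays kept, the differences were -4.03 at step 4 and -4.94 at step 5. A dimmer second Rpl10l probe gave -1.77 at step 4 and -2.35 at step 5, so the probes shared the direction and not the size. Net Cy5 signals of Rpl10l were 170.6, 499.8 and 36.55 in step 4 enriched and 147.1, 592 and 95.38 in step 5 enriched cells. In control cells they were 2077 or more. At such low signals the offset of the background correction weighs on the ratio, so both fold values are approximate.

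Rpl10, the X-linked gene whose protein sits near the catalytic centre of the large subunit, did not pass at either step. It had 0.78, 1.15 and 0.90 in step 4 enriched cells and 0.58, 0.90 and 0.52 in step 4 control cells, which overlapped, and at step 5 its enriched arrays lay above the control arrays. The difference was 0.28 at step 4 (95% interval -0.02 to 0.58, adjusted p = 0.1397) and 0.27 at step 5 (-0.03 to 0.57, adjusted p = 0.1353). Under median centring of each array in place of loess both differences turned negative, -0.29 and -0.28, and neither passed. The paralog's level minus that of Rpl10 on the same array averaged -6.30 ± 0.99 in step 4 enriched and -2.09 ± 0.42 in step 4 control cells (SD, n = 3). At step 5 it averaged -5.85 ± 1.01 in enriched and -1.04 ± 0.77 in control cells. These are relative to mESC, so they give a change of one gene against the other and not their relative abundance.

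Rpl39l (probe at chr16:10174657-10174716, mm9) had -6.49, -5.64 and -6.38 in step 4 enriched cells, against -3.63, -3.80 and -3.50 in step 4 control cells. Every enriched array was lower than every control array. The difference was -2.53 (SE 0.72, adjusted p = 0.02333), or 5.76-fold, and it missed the threshold without 1 of 5 step 4 arrays (adjusted p = 0.05537 to 0.07083) and with a trended prior variance (adjusted p = 0.2369). In step 5 enriched cells the ratios were -6.14, -4.76 and -5.89, against -0.12, -3.10 and 0.10 in step 5 control cells. Of the step 5 control arrays those of slides 1 and 3 were at the mESC level, and that of slide 2 lay far lower yet above every enriched array. The difference was -4.56 (SE 0.72, adjusted p = 0.0009371), or 23.5-fold, and -5.59 without the step 5 control array of slide 2. Net Cy5 signals of Rpl39l were 61.97, 240.5 and 58.73 in step 4 enriched and 107.2, 445 and 91.55 in step 5 enriched cells. In control cells they were 652.7 or more. The fold values of Rpl39l are approximate for the same reason as those of Rpl10l.

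The 2 kinds of control cells differed in Rpl39l as well. Its mean was -1.04 ± 1.79 in step 5 control cells and -3.64 ± 0.15 in step 4 control cells (SD, n = 3), and the groups did not overlap. The difference of 2.60 (SE 0.72, 95% interval 1.01 to 4.20) did not pass over all genes (adjusted p = 0.2799), where 0 of 22322 genes were called. By slide it was 3.51, 0.70 and 3.60, so the array of slide 2 differed from the others. Without step 5 control replicate 2 it was 3.64 (adjusted p = 0.002279), and without both control arrays of slide 2, an alternative chosen after the data were seen, 3.56 (adjusted p = 0.01071). The enrichment effect was 2.03 larger in size at step 5 than at step 4 (difference of effects -2.03, SE 1.02, adjusted p = 0.7566), which did not pass, and it was -3.06 (adjusted p = 0.07219) without step 5 control replicate 2. On that slide 2 array the median of 8 fibroblast and mesenchyme genes was 3.51, against 6.14 and 6.43 on the other step 5 control arrays. In step 5 enriched cells, where Rpl39l was at -4.76 to -6.14, that median was 6.11 to 6.56. The part of these genes in the result was not tested.

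By its brightest probe, Rpl39 itself stayed near the mESC level in all groups. It had 0.06, -0.01 and 0.08 in step 4 enriched, -0.08, -0.16 and -0.02 in step 4 control, -0.23, 0.08 and -0.13 in step 5 enriched and -0.14, 0.06 and -0.15 in step 5 control cells. Enriched and control arrays overlapped at step 5 and not at step 4, where the difference of 0.13 did not pass (adjusted p = 0.3799). Between the probes of Rpl39 the enriched minus control difference had a range of 0.41 at step 4 and 0.56 at step 5. The level of Rpl39l minus that of Rpl39 averaged -6.22 ± 0.51 in step 4 enriched and -3.56 ± 0.08 in step 4 control cells. At step 5 it averaged -5.51 ± 0.58 in enriched and -0.97 ± 1.91 in control cells (SD, n = 3).

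Rps4y2 is the array's name for the gene that RefSeq calls Rps4l on chromosome 6, an autosomal copy of X-linked Rps4x with the biotype of a transcribed pseudogene. Its ratios were -2.12, -1.77 and -2.48 in step 4 enriched and -0.43, -0.64 and -0.60 in step 4 control cells, and -2.06, -1.94 and -2.35 in step 5 enriched and 0.07, -0.90 and -0.18 in step 5 control cells. Enriched arrays were below control arrays at both steps, with no overlap. The difference was -1.57 (SE 0.25, adjusted p = 0.001577) at step 4 and -1.78 (SE 0.25, adjusted p = 0.0004745) at step 5. Rps4x had differences of -0.02 (adjusted p = 0.8935) and -0.17 (adjusted p = 0.2383). Probes were not aligned to transcripts, and a gene and its copy can share probe letters, so these 2 signals may not be separate.

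Rpl3l, known from heart and skeletal muscle, where it takes the place of Rpl3, had -1.73, -1.99 and -1.76 in step 4 enriched and -0.52, -0.81 and -0.77 in step 4 control cells. It was well above background on 0 of 3 step 4 enriched arrays, so the difference of -1.12 (SE 0.12, adjusted p = 0.0002636) is a bound, with a ratio at least 2.18-fold lower in enriched cells. Rpl3l was tested only because control arrays were well above background, so a fall was favoured in advance at both steps. At step 5 its ratios were -1.67, -1.84 and -1.68 in enriched and -0.39, -0.57 and -0.30 in control cells, a difference of -1.31 (SE 0.12, adjusted p = 9.291e-05), with 2 of 3 enriched arrays well above background. Net Cy5 signals of Rpl3l were 29.14, 38.28 and 21.69 in step 5 enriched and 191.5, 206.6 and 215.1 in step 5 control cells. Those of enriched cells lay below the offset of 50, so this difference is approximate as well. The arrays of the groups did not overlap at either step. Of 6 muscle genes 0 were higher in enriched cells, with 1 lower at step 4 and 2 at step 5. Among all genes 15% and 20.3% were higher, and 16.2% and 20.2% lower. Rpl3 was at -0.32 (adjusted p = 0.06368) at step 4 and fell by 0.39 (adjusted p = 0.02628) at step 5.

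Rpl7l1, a nucleolar relative of Rpl7, had -1.22, -1.69 and -1.53 in step 4 enriched and -0.34, -0.61 and -0.63 in step 4 control cells, and -1.46, -1.51 and -1.73 in step 5 enriched and -0.65, -0.83 and -0.80 in step 5 control cells. All enriched arrays were below all control arrays of their step. It fell by 0.95 (SE 0.14, adjusted p = 0.001244) at step 4 and by 0.81 (SE 0.14, adjusted p = 0.001708) at step 5. Rpl7 had differences of 0.13 and 0.03 and did not pass.

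The remaining 3 paralogs moved little. Rps27l, which p53 activates in human and mouse cells, had -0.42, -0.38 and -1.02 in step 5 enriched and -0.06, -0.05 and -0.05 in step 5 control cells, a fall of 0.55 (SE 0.19, adjusted p = 0.03978) that was lost under 11 of 27 alternatives. At step 4 its difference was -0.12 (adjusted p = 0.6612). Rpl36al, the autosomal copy of X-linked Rpl36a, had differences of -0.08 (adjusted p = 0.7373) and -0.26 (adjusted p = 0.22), and Rpl36a of -0.09 (adjusted p = 0.7026) and -0.38 (adjusted p = 0.06636). Rpl22l1, which stands in for Rpl22 in mice that lack it, had differences of 0.13 (95% interval -0.23 to 0.50, adjusted p = 0.5788) and -0.04 (-0.40 to 0.33, adjusted p = 0.8804), and its arrays overlapped at both steps.

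**Figure D2:**
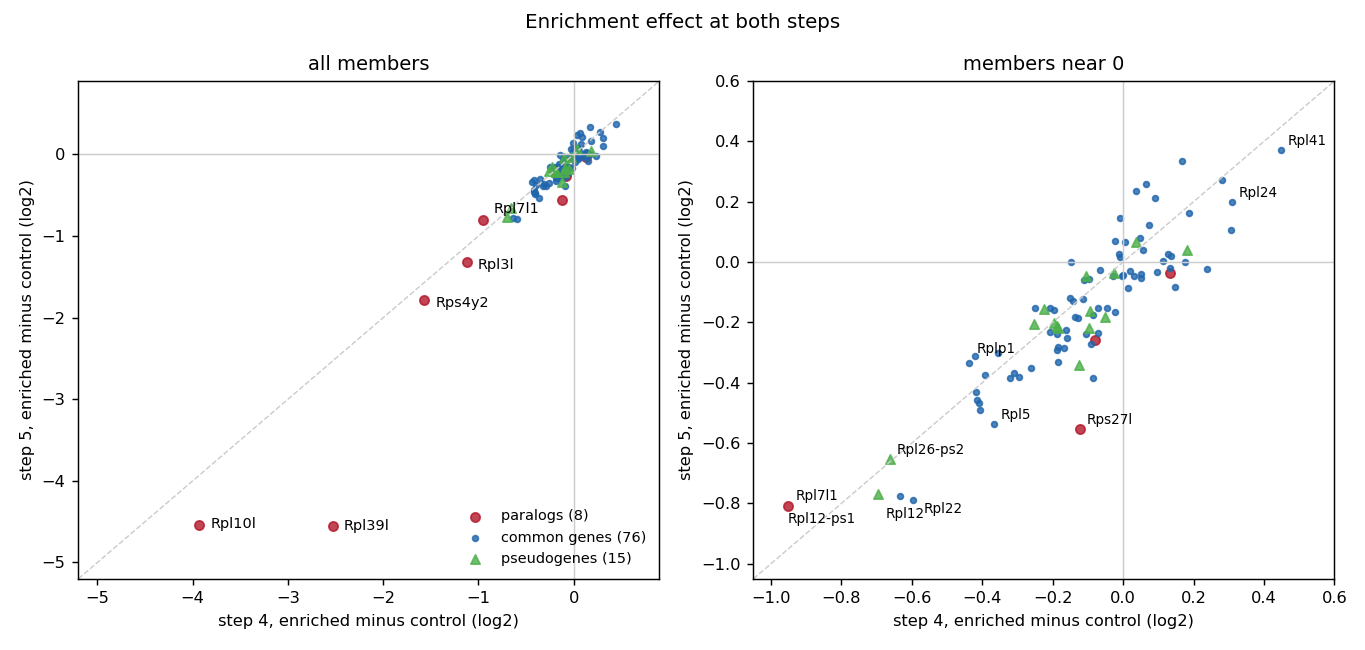
Difference between enriched and control cells in log2 ratio at step 4 (horizontal) and step 5 (vertical) for each paralog, common gene and pseudogene, with all members on the left and those near 0 on the right, and a dashed line of equal difference. Rpl10l lies at -3.93 and -4.54 and Rpl39l at -2.53 and -4.56, whereas the common genes lie between -0.63 and 0.45 at step 4 and between -0.79 and 0.37 at step 5.

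Set against mESC, 7 paralogs were lower in step 4 enriched cells, 7 in step 4 control cells, 8 in step 5 enriched cells and 3 in step 5 control cells, with 0 higher in any group. Of all genes 31.5%, 17.4%, 33% and 19% were lower in these groups. With 0 dye swaps these levels cannot be told apart from effects of the dyes. The 3 called in step 5 control cells were Rpl22l1 at -0.84, Rpl7l1 at -0.76 and Rpl3l at -0.42. Rpl22l1 lay between -0.75 and -0.89 in all groups, and Rpl39l averaged -6.17, -3.64, -5.60 and -1.04 in step 4 enriched, step 4 control, step 5 enriched and step 5 control cells. Its step 5 control level did not pass (adjusted p = 0.1208) and was -0.01 without replicate 2. Under median centring Rpl36al was above mESC in step 4 enriched cells (0.035), Rpl36al (0.37), Rps27l (0.55) and Rps4y2 (0.15) in step 4 control cells, and Rps27l (0.51) in step 5 control cells. In that scaling the median of all genes also moved, to 0.37, 0.30, 0.42 and 0.30.

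Between steps, limma called 0 paralogs in either kind of cell, and 0 for the difference of enrichment effects. Of all genes 3.96% were called higher and 2.46% lower in step 5 than in step 4 enriched cells, and 0% in control cells or for the difference of effects. At an unadjusted p under 0.05, 0 paralogs differed between step 5 and step 4 enriched cells, 2 (Rpl39l and Rpl3l) were higher in step 5 than in step 4 control cells, and 0 had a difference of effects. Among all genes the unadjusted shares were 11.98% higher and 9.90% lower in enriched cells and 6.16% and 2.43% in control cells. Rpl10l averaged -5.05 ± 1.07 in step 5 enriched and -5.36 ± 1.10 in step 4 enriched cells, and -0.52 ± 0.71 in step 5 control and -1.43 ± 0.28 in step 4 control cells (SD, n = 3). The difference was 0.30 (95% interval -1.06 to 1.67, adjusted p = 0.825) for enriched and 0.91 (-0.45 to 2.28, adjusted p = 0.8162) for control cells.

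Markers of germ cells and of pluripotent cells were also mostly lower in enriched than in control cells. Of 24 tested germline genes 20 were lower in enriched cells at step 4 and 21 at step 5, with 0 higher and medians of -2.82 and -2.91. Among all genes 16.2% and 20.2% were lower, and 15% and 20.3% higher. Mael, a factor of transposon silencing in germ cells, had differences of -4.88 (adjusted p = 0.000177) and -4.42 (adjusted p = 0.0001529), and Ddx4, the germ cell RNA helicase Vasa, of -4.69 and -4.10. Pgk2, the testis retrogene of X-linked Pgk1, was at -0.00 and 0.01 and passed at neither step (adjusted p = 0.9878 and 0.9696). The array medians of the germline list were -2.46 to -1.91 in step 4 enriched and 0.54 to 1.10 in step 4 control cells. At step 5 they were -2.62 to -1.15 in enriched and 0.82 to 1.21 in control cells. Those of the pluripotency list were -4.32 to -3.50 in step 4 enriched and -0.93 to -0.73 in step 4 control cells, and -4.15 to -2.89 in step 5 enriched and -0.88 to -0.81 in step 5 control cells. Between step 5 and step 4 control cells the median differences were 0.17 for the germline and 0.01 for the pluripotency list. Rpl39l differed by 2.60 there. Some germline genes, such as Dppa3 and Dazl, are also transcribed in mESC. Of 7 tested genes from pairs of a retrogene or paralog and its parent 4 were lower and 0 higher at each step. This count holds copies and parents alike, and the pairs share Slc25a31, Pgk2 and Taf7l with the germline list. The part of germ cells and pluripotent cells in the fall of the paralogs was not tested.

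**Figure D3:**
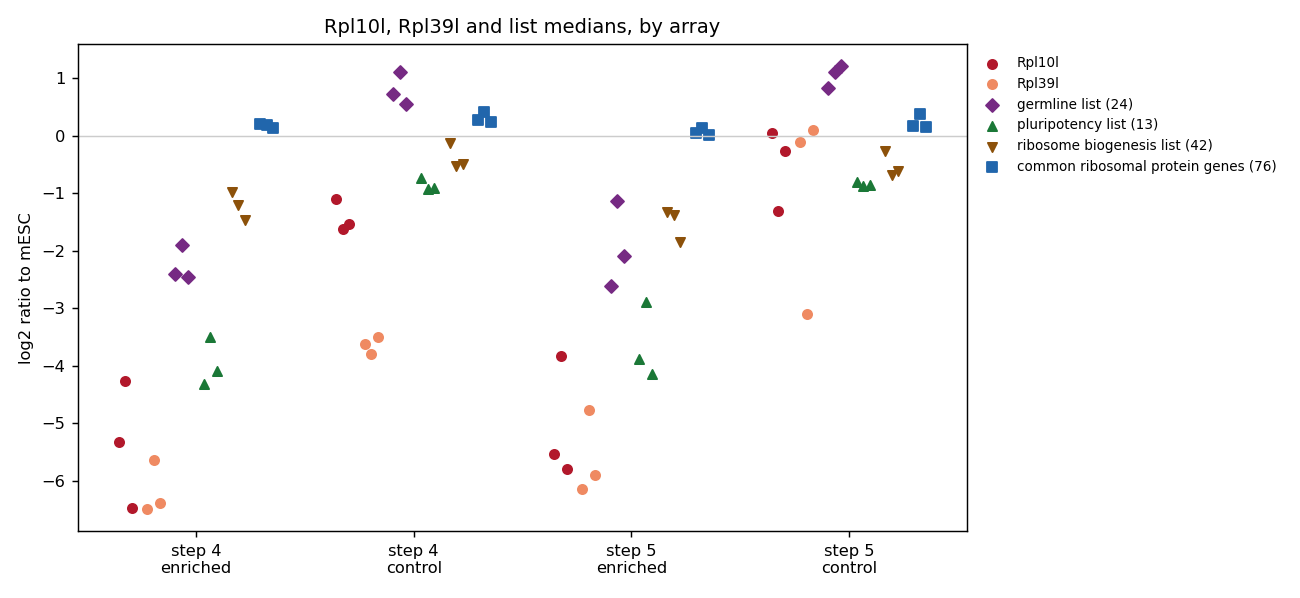
Log2 ratio to mESC of Rpl10l and Rpl39l and the median of 4 gene groups on each of the 3 arrays of a group. Germline medians lie between -2.62 and -1.15 in enriched cells and above 0.5 in control cells, while medians of the common ribosomal protein genes lie between 0.01 and 0.41 on all 12 arrays.

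The genes most like Rpl10l over the 12 arrays, by the root mean square difference of log2 ratios among 22228 genes with no missing value, were an unnamed probe (0.255), Rbmxl2 (0.405), Fthl17f (0.472), Fthl17d (0.480) and Nanog (0.511). The median over all genes was 3.87. Rbmxl2 is a testis retrogene, the Fthl17 genes are X-linked relatives of the ferritin heavy chain, and Nanog is a pluripotency factor. Nanog averaged -5.57, -1.03, -4.77 and -0.69 in step 4 enriched, step 4 control, step 5 enriched and step 5 control cells, where Rpl10l averaged -5.36, -1.43, -5.05 and -0.52. For Rpl39l the nearest genes were farther off, 3 unnamed probes (0.924, 1.11 and 1.16), Mep1b (1.15) and Pigp (1.17), against a median of 4.70. These values are descriptions over arrays that share slides and the mESC sample.

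The 76 common genes differed little between enriched and control cells. At step 4, 2 were higher (Rpl41 and Rpl24) and 9 lower, or 2.63% and 11.8%, against 15% higher and 16.2% lower among all genes. At step 5, 1 was higher (Rpl41) and 13 lower, or 1.32% and 17.1%, against 20.3% and 20.2%. The median difference was -0.08 at step 4 and -0.12 at step 5, and 50 and 55 of the 76 were below 0. These splits depend on the scaling: 2 higher and 2 lower at step 4 and 3 and 5 at step 5 with the scanner's log ratio, and 0 and 15, then 0 and 19, with median centring. The step 4 median was 0.02 with the scanner's log ratio, and medians were -0.55 and -0.56 with median centring, where those of all genes were 0.13 at both steps. With the replicate number as a block, 4 were higher at step 4 and 2 at step 5. Without both control arrays of slide 2, an alternative chosen after the data were seen, the counts were 0 higher and 5 lower at step 4 and 2 and 8 at step 5. The number lower at step 4 was also 4 without step 4 control replicate 2 or step 4 enriched replicate 3 and 5 without step 4 enriched replicate 2. At step 5 it was 6 without step 5 control replicate 2 or step 5 enriched replicate 3.

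**Figure D4:**
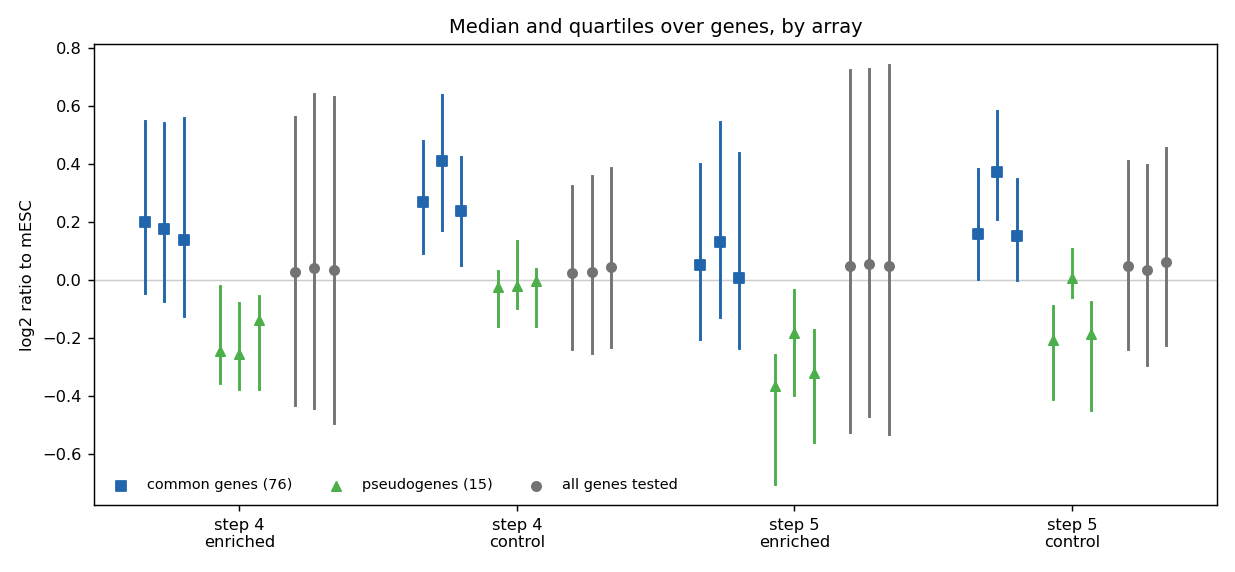
Median (points) and quartiles (bars) of the log2 ratio to mESC over the 76 common genes, the 15 pseudogenes and all genes tested, on each of the 3 arrays of a group. Common gene medians are 0.14 to 0.20 in step 4 enriched and 0.24 to 0.41 in step 4 control cells, and 0.01 to 0.13 in step 5 enriched and 0.15 to 0.37 in step 5 control cells.

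Rpl12, which forms the base of the stalk where translation factors bind, had the largest fall among common genes at step 4. It had -0.31, -0.52 and -0.46 in step 4 enriched and 0.21, 0.27 and 0.14 in step 4 control cells, and -0.64, -0.35 and -0.82 in step 5 enriched and 0.01, 0.43 and 0.07 in step 5 control cells. All enriched arrays were below 0 and all control arrays above it. It fell by 0.63 (SE 0.15, adjusted p = 0.009883) at step 4 and by 0.78 (SE 0.15, adjusted p = 0.002384) at step 5, and its second probe by 0.63 and 0.80. Its processed copy Rpl12-ps1 fell by 0.70 (adjusted p = 0.009897) and 0.77 (adjusted p = 0.004097). Transcripts of a gene and its copy can share probe letters, so their signals may not be separate.

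Rpl22, an RNA-binding protein of the large subunit, had -0.29, -0.16 and -0.17 in step 4 enriched and 0.30, 0.59 and 0.27 in step 4 control cells. In step 5 enriched cells it had -0.66, -0.28 and -0.60, against 0.24, 0.46 and 0.11 in step 5 control cells. Its brightest probe fell by 0.60 (SE 0.14, adjusted p = 0.01026) and 0.79 (SE 0.14, adjusted p = 0.001729). The second Rpl22 probe did not follow it, at -0.00 and 0.01, and the mean of both probes passed at neither step (-0.30, adjusted p = 0.1948, and -0.39, adjusted p = 0.08615). The level of Rpl22l1 minus that of the brightest Rpl22 probe averaged -0.54 ± 0.23 in step 4 enriched and -1.27 ± 0.37 in step 4 control cells, and -0.36 ± 0.26 in step 5 enriched and -1.12 ± 0.21 in step 5 control cells (SD, n = 3). That difference rests on the brightest Rpl22 probe and was not tested.

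Of the stalk proteins Rplp1 fell by 0.44 (adjusted p = 0.01378) and 0.34 (adjusted p = 0.03203), while Rplp0 was at -0.00 (adjusted p = 0.9996) and -0.04 (adjusted p = 0.8476) and Rplp2 at -0.19 (adjusted p = 0.2929) and -0.33 (adjusted p = 0.05907). Rplp1 had -0.28, -0.49 and -0.49 in step 4 enriched and -0.10, 0.20 and -0.04 in step 4 control cells, with no overlap. Rpl5, which carries a small ribosomal RNA into the large subunit, fell by 0.37 (adjusted p = 0.0461) at step 4 and 0.54 (adjusted p = 0.006775) at step 5. Rpl4, whose loop lines the peptide exit tunnel, fell by 0.42 (adjusted p = 0.03469) and 0.43 (adjusted p = 0.02434), and Rpl18 by 0.41 (adjusted p = 0.009094) and 0.49 (adjusted p = 0.002318). Rpl10a was at -0.31 (adjusted p = 0.05913) at step 4 and fell by 0.37 (adjusted p = 0.02509) at step 5. Thus 6 of the 46 genes of the large subunit (13%) fell at step 4 and 8 (17.4%) at step 5. Of all genes 16.2% and 20.2% were lower.

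In the small subunit 3 of 30 genes (10%) fell at step 4 and 5 (16.7%) at step 5, with 0 higher. The shares of all genes were 16.2% and 20.2% lower, and 15% and 20.3% higher. Rps12 fell by 0.41 (adjusted p = 0.02721) and 0.46 (adjusted p = 0.01347), and Rps18, a protein of the subunit head, by 0.39 (adjusted p = 0.009187) and 0.38 (adjusted p = 0.007671). Rps2, near the entry of the mRNA channel, had -0.34, -0.58 and -0.69 in step 4 enriched and -0.17, 0.02 and -0.18 in step 4 control cells, and fell by 0.42 (adjusted p = 0.0191), while its step 5 difference of -0.31 missed the threshold (adjusted p = 0.0512). Rps20 and Rps10 passed this threshold at step 5 and not at step 4, with differences of -0.35 and -0.29 at step 5 and -0.26 and -0.19 at step 4, and the difference between steps did not pass for any member. Rpsa, the laminin receptor precursor, was at -0.16 (adjusted p = 0.2435) and -0.25 (adjusted p = 0.062).

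Rpl41, the smallest protein of the ribosome, was the gene called higher at both steps. It had 0.93, 0.79 and 0.95 in step 4 enriched and 0.49, 0.30 and 0.54 in step 4 control cells, and 0.92, 0.62 and 0.78 in step 5 enriched and 0.49, 0.36 and 0.37 in step 5 control cells. The arrays did not overlap. It rose by 0.45 (SE 0.11, adjusted p = 0.01299) and 0.37 (SE 0.11, adjusted p = 0.0222), but turned to -0.15 and -0.19 with median centring. Rpl24, at the bridge between the subunits, rose by 0.31 (SE 0.10, adjusted p = 0.04103) at step 4, a call that was lost under 16 of 27 alternatives and turned to -0.23 with median centring.

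Among the 15 pseudogenes 2 were lower at step 4 (13.3%) and 3 at step 5 (20%), with 0 higher and medians of -0.13 and -0.20, against 16.2% and 20.2% of all genes lower and 15% and 20.3% higher. Besides Rpl12-ps1 these were Rpl26-ps2, at -0.66 (adjusted p = 0.0305) and -0.65 (adjusted p = 0.02551), and Rps6-ps2, at -0.34 (adjusted p = 0.01153) at step 5. The binding protein gene Rps19bp1 was at 0.00 (adjusted p = 0.9847) and -0.05 (adjusted p = 0.8082). The probes used for Rps27 and Rps29, and for 3 pseudogenes, lay on another chromosome than RefSeq gives for the gene, and without Rps27 and Rps29 the counts of common genes stayed at 2 higher and 9 lower at step 4 and 1 and 13 at step 5.

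Different probes of a gene mostly gave like differences. Over the 54 common genes with several probes the range between probes had a median of 0.16 at step 4 and 0.17 at step 5, and it was over 0.5 for 7 and 10 genes.

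**Figure D5:**
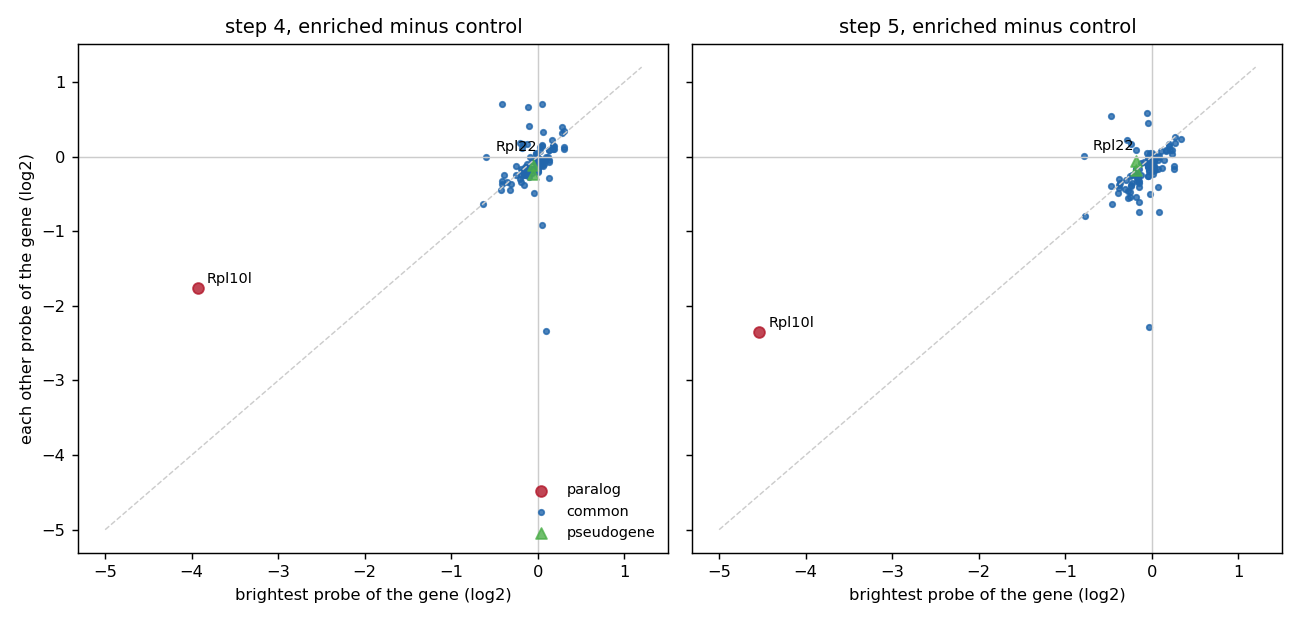
Difference between enriched and control cells for the brightest probe of a gene (horizontal) and for each of its other probes (vertical), in log2, at step 4 (left) and step 5 (right), with a dashed line of equality. The labelled genes are Rpl10l, whose second probe is at -1.77 and -2.35, and Rpl22, whose second probe is at -0.00 and 0.01.

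Relative to mESC, common genes were more often higher than lower in each group. The mESC RNA was in Cy3 on every array, so these levels cannot be told apart from effects of the dyes. In step 4 enriched cells 37 were higher and 8 lower, in step 4 control cells 42 and 3, in step 5 enriched cells 27 and 16, and in step 5 control cells 38 and 6. Of all genes 35.4% were higher and 31.5% lower in step 4 enriched, 21.4% and 17.4% in step 4 control, 38.4% and 33% in step 5 enriched, and 25.7% and 19% in step 5 control cells. Medians were 0.22, 0.32, 0.02 and 0.23 in that order, against 0.03 to 0.05 over all genes. With median centring the counts were 45 and 0, 74 and 0, 23 and 2, and 67 and 1, beside medians of 0.30 to 0.42 over all genes. With the mean of all probes of a gene, step 5 enriched cells had 19 higher and 32 lower. Rps14 was the highest in step 4 enriched (0.99), step 4 control (1.14) and step 5 control cells (0.93), and Rpl21 the lowest in all 4 groups (-0.78, -0.61, -1.18 and -0.89).

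Between steps, limma called 0 common genes in enriched cells, against 3.96% of all genes higher and 2.46% lower, and 0 in control cells, against 0% of all genes. At an unadjusted p under 0.05, 0 were higher and 6 lower in step 5 than in step 4 enriched cells, against 11.98% and 9.90% of all genes, and 0 and 2 in control cells, against 6.16% and 2.43%. The median difference was -0.11 in enriched cells, where 66 of 76 were below 0, and -0.06 in control cells. With the replicate number as a block 1 common gene was lower in step 5 than in step 4 enriched cells. For the difference of enrichment effects 0 common genes were called and 0 had an unadjusted p under 0.05, and 0% of all genes were called.

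Genes that build the ribosome were counted in the same fit. Of 42 ribosome biogenesis genes 31 were lower and 1 higher in enriched cells at each step, with medians of -0.79 and -0.96. The counts in this paragraph stand beside 16.2% of all genes lower and 15% higher at step 4, and 20.2% and 20.3% at step 5. Fbl, the methyltransferase of small nucleolar particles, fell by 0.67 (adjusted p = 0.01093) and 1.05 (adjusted p = 0.0007599), Ncl, nucleolin, by 0.94 (adjusted p = 0.002659) and 1.05 (adjusted p = 0.0009209), and Npm1, nucleophosmin, by 1.01 (adjusted p = 0.0004298) and 0.98 (adjusted p = 0.000267). The 1 that rose was Rrp1, by 0.54 and 0.88. The array medians of the list were -1.47 to -0.98 in step 4 enriched and -0.53 to -0.14 in step 4 control cells, and -1.85 to -1.34 in step 5 enriched and -0.68 to -0.27 in step 5 control cells. Of 14 assembly chaperones and export factors 9 were lower and 2 higher at each step. Of 12 cell cycle genes 8 were lower at step 4 and 12 at step 5, with array medians of -1.37 to -1.15 in step 4 enriched and -0.51 to -0.31 in step 4 control cells, and -2.20 to -1.89 in step 5 enriched and -0.93 to -0.38 in step 5 control cells, and their part in the result was not tested. The ribosomal protein genes Fau, at 0.12 and 0.20, and Rack1, at -0.04 and -0.10, lie outside the name rule and passed at neither step.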

How the data were processed

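RNA of 12 samples was measured on 2-colour Agilent mouse arrays, sample in Cy5 and mESC in Cy3, with 0 dye swaps, from 100 ng of RNA per the labels. The scanner files hold mean spot and background signals as intensity, and a log10 ratio that the software had background-subtracted and dye-normalized, per the file headers. Feature Extraction 10.5.1.1 read slide 2 and 10.7.3.1 slides 1 and 3. The deposited table is in log2, and its values equalled the scanner ratio to 0.001 for 99.38 to 99.53% of probes. No label gives its making.

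Intensities were corrected by normexp (offset 50) and loess in limma 3.58.1 (R 4.3.3). The 1377 control spots and 128 to 298 marked spots per array were left out, and spots of the same probe were averaged, which gave 39429 probes. A gene was tested if the 3 arrays of at least 1 group had its Cy5 signal well above background, 22322 between groups and 22452 against mESC, in 1 fit of the 4 group means with eBayes. RefSeq names came through the probe's accession for 26581 probes, through a second one for 105, by symbol for 2531 and by synonym for 474. The array annotation is on mm9, and RefSeq promoters are on GRCm38.p6.

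Same-numbered arrays share a slide, and their deviations from group means correlated at 0.13 to 0.747, so a replicate block was an alternative. Members, lists and named genes (paralogs, their counterparts, Rpsa, the stalk, and the 5 largest called changes each way) were chosen with earlier results of these data known. Rps14, Rpl21, Rps20, Rps10, Rpl10a, pseudogenes and single genes of the lists were named after their values were seen. The number of arrays limits precision.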

Additional observations from a re-analysis of the deposited data

How the results depend on the processing

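Each result was recomputed under 26 alternatives and 1 more chosen after the data were seen. The falls of Rpl10l, Rps4y2, Rpl3l and Rpl7l1 passed in all 214 values of the alternatives that kept the genes, at both steps, with a highest adjusted p of 0.02286. In the main fit Rpl3l was tested only through control cells, where it was higher, so its fall was favoured in advance. Rpl39l was lost at step 4 under 6 alternatives and at step 5 under 0. Rpl12 passed under all 27 at both steps, and Rpl22 was lost with the mean of all probes.

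Counts of common genes moved as follows, and the cause was not tested. The number higher at step 4 was 1 with no background correction, with members at weight 0 in loess, with a trended prior variance and with only the groups of a comparison, 0 with median centring and without both control arrays of slide 2, and 4 with the replicate block. At step 5 it was 3 with the scanner's log ratio and with the deposited table, 0 with median centring and with only the groups of a comparison, and 2 with the mean of all probes, the replicate block, slide as a random block and without both control arrays of slide 2. The number lower at step 4 was 2 with the scanner's ratio and the deposited table, 15 with median centring, 14 with slide as a random block and 5 without both control arrays of slide 2. At step 5 it was 5 with the scanner's ratio and the deposited table, 20 with the mean of all probes, 21 with slide as a random block, 6 with only the groups of a comparison and 8 without both control arrays of slide 2. The replicate block gave 1 common gene lower in step 5 than in step 4 enriched cells, and changed no other count by over 1.5 times. The fit of only the groups of a comparison could not be made against mESC or for the difference of effects. Leaving out 1 array at a time gave 0 to 2 higher and 4 to 9 lower at step 4, 0 to 1 higher and 6 to 15 lower at step 5, and 4 to 7 paralogs below mESC in step 4 control cells.

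Against mESC, the scanner's ratio and the deposited table gave 25 common genes higher and 6 lower and 4 paralogs lower in step 4 control cells, and 22 higher in step 5 control cells. Median centring gave 74 higher in step 4 control and 67 in step 5 control cells, with 0, 0, 2 and 1 lower in step 4 enriched, step 4 control, step 5 enriched and step 5 control cells, and 2 and 1 paralogs lower in step 4 and step 5 control cells. The mean of all probes gave 23 higher in step 5 control cells, and 19, 6 and 32 lower in step 4 enriched, step 4 control and step 5 enriched cells. Median centring also turned Rpl24 at step 4 (-0.23), Rpl41 at step 4 (-0.15) and step 5 (-0.19), and against mESC Rpl36al in step 4 enriched (0.035) and step 4 control cells (0.37), Rps27l in step 4 control (0.55) and step 5 control cells (0.51) and Rps4y2 in step 4 control cells (0.15).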

Other observations

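Of 44 translation factors, which work on the ribosome, 2 were higher and 11 lower in enriched cells at step 4, and 7 and 11 at step 5, with medians of -0.15 and -0.16. Of all genes 15% were higher and 16.2% lower at step 4, and 20.3% and 20.2% at step 5. Eef1a1, the ubiquitous elongation factor, was at 0.11 and 0.14 and did not pass, while Eef1a2, its counterpart of mature neurons and muscle, was at 0.58 (adjusted p = 0.1793) at step 4 and rose by 1.72 (adjusted p = 0.001814) at step 5. Members that fell included Eif2s1, a subunit of the factor that brings the initiator tRNA, at -1.07 (adjusted p = 0.00138) and -1.24 (adjusted p = 0.0003692), and Etf1, the release factor, at -1.25 and -1.16. Tpt1 rose by 0.94 and 0.75.

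Of 77 ribosomal proteins of mitochondria 5 were higher and 22 lower at step 4, and 9 and 23 at step 5, with medians of -0.16 and -0.09, beside the same shares of all genes. Mrpl1 fell by 1.78 (adjusted p = 0.0008482) and 1.52 (adjusted p = 0.001107), and Mrpl15 by 1.21 and 1.14. Mrps21 rose by 0.57 and 0.52, and Mrpl14 by 0.38 and 0.54. Between step 5 and step 4 enriched cells 2 were higher, Mrpl48 by 0.57 and Mrps36 by 0.42, and 0 lower, against 3.96% and 2.46% of all genes. Of 7 endoderm genes 0 were called at step 4 and 1 was lower at step 5. These lists and the named genes were chosen with results of these data known.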
